A study of Canis lupus familiaris with 12 samples.

Results

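The miR-15/16 family, with miR-195 and miR-497, was described in CHMm, a cell line from a canine mammary gland tumor, and in CHMmTAM, the tamoxifen (TAM)-resistant line derived from it. Its members were chosen by name as the entries cfa-miR-15a, cfa-miR-15b, cfa-miR-16, cfa-miR-195 and cfa-miR-497. All 5 were found among the 453 miRNAs listed, and all 5 passed the filter on low counts that left 284 miRNAs to be tested. Both lines grew in phenol-red-free DMEM with 10% charcoal-stripped serum. For CHMmTAM, the TAM concentration was raised over 10 months to 10 μM, held there for 1 month and followed by 1 drug-free week. The small RNA libraries compared here numbered 3 per line, and the 6 RNA-seq samples of the series were not analysed here. CHMm comes from the metastatic lesion of a single dog and CHMmTAM is a single resistant line, so TAM resistance and other changes during the months of selection cannot be told apart. No source states that the 3 libraries of a line came from separate cultures, so the p-values measure only the spread between these libraries.

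miRNAs of this family pair with target mRNAs through a seed, the bases near the 5′ end, that the members share. They are known as repressors of BCL2, which protects cells from apoptosis, and of cyclin D1, cyclin E1 and CDK6, which drive the passage from G1 into S phase. The family is encoded in pairs. In the RefSeq genes of the dog assembly UU_Cfam_GSD_1.0, MIR15A and MIR16-1 are neighbours on chromosome 22 within the span of the protein-coding gene LOC102156997. MIR15B and MIR16-2 are neighbours on chromosome 34 within SMC4, a subunit of condensin, and MIR195 and MIR497 are neighbours on chromosome 5. The mature miR-16 can be made from both of its genes, and reads of the table do not tell them apart. Mature sequences of the 5 members were not used here.

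The total counts per library ranged from 7512659 to 12482211, and miR-21 took between 50.2% and 54.5% of them. Levels are given in CPM, the count of a miRNA relative to its library's total on a common scale, after TMM scaling, which corrects the totals for a few dominant miRNAs. Only the summed levels of marker miRNAs were taken without TMM scaling. Libraries of the same line differed by more than sampling noise, with chi-square values of 26.3 to 85.8 per degree of freedom, and each was counted as a replicate. The lowest count of any member was 214, where counting error alone gives a coefficient of variation of 6.84%. All 7 miRNAs listed as epithelial markers were tested, and their summed level was 24457 to 26853 CPM in CHMm and 21958 to 23739 CPM in CHMmTAM. Of the 7, 3 were higher in CHMmTAM (miR-200a, miR-200b and miR-429) and 2 lower (miR-203 and miR-205) by the test described below. Over all tested miRNAs 25.4% were higher and 18.7% lower. Among those at least as abundant as miR-497, which include all 7 markers, 63.0% were called in either direction. Most of the lower sum came from miR-205, at 5998 CPM in CHMm and 3802 CPM in CHMmTAM on average.

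In the resistant line, miR-497 fell by 24.8% and miR-195 fell by 15.5%, while miR-15a, miR-15b and miR-16 did not pass the test. Whether miR-195, miR-16 and miR-15b passed changed with the scaling, the test or the libraries kept, as given below. For miR-497 it did not. With edgeR's quasi-likelihood test and Benjamini-Hochberg adjustment (FDR), 2 of the 5 members passed an FDR of 0.05, both lower in CHMmTAM and 0 higher. Among all tested miRNAs 44.0% passed, 25.4% higher and 18.7% lower, and among the 135 miRNAs at least as abundant as miR-497 63.0% passed. A count of 2 in 5 is near the share over all tested miRNAs and is no result about the family as a group. When a log2 fold change beyond 1 in either direction was required as well, 0 of the 5 members and 11.3% of all tested miRNAs passed. The median log2 fold change was -0.08 over the members and 0.06 over all tested miRNAs. The 95% intervals of the 5 members together spanned -0.63 to 0.30 on the log2 scale, so each excluded a 2-fold change in either direction.

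**Figure D1:**
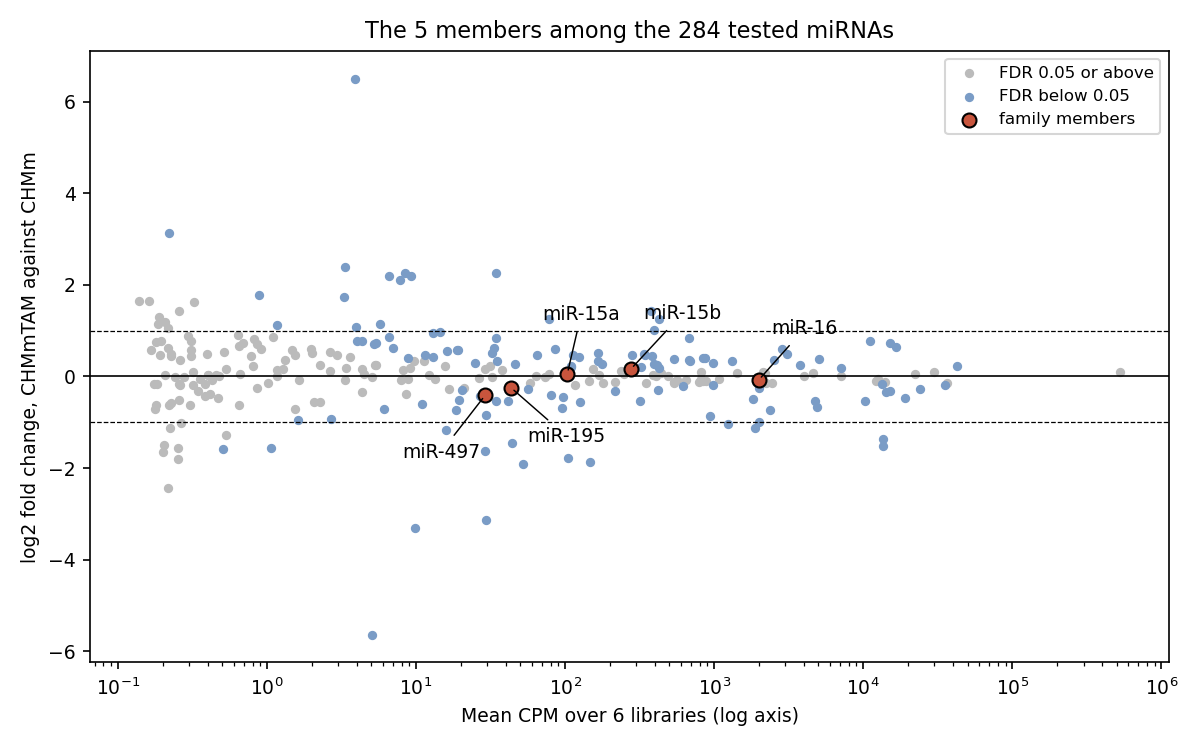
Log2 fold change of CHMmTAM against CHMm (vertical axis) over the mean CPM of the 6 libraries (horizontal log axis) for the 284 tested miRNAs, with the 5 family members in red and dashed lines at log2 fold changes of 1 and -1. The members sit close to 0, from -0.41 for miR-497 to 0.16 for miR-15b.

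miR-16, a repressor of BCL2 and cyclin D1 and a common reference in miRNA assays, made up most of the family. It had 2075, 2081 and 1962 CPM in CHMm and 1855, 1986 and 1939 CPM in CHMmTAM, so that the lines overlapped. The parental line had a mean of 2039 ± 66.7 CPM (SD, n = 3) and the resistant line one of 1927 ± 66.7 CPM. The log2 fold change of -0.08 had a standard error of 0.07, a 95% interval from -0.21 to 0.05 and an FDR of 0.327 (edgeR). The direction was negative under all 5 scalings tried, and the value was -0.03 without CHMmTAM replicate 1. miR-16 was called lower by the DESeq2 Wald test, with a log2 fold change of -0.15 and an FDR of 0.0329, and under upper-quartile normalization, with -0.32 and an FDR of 3.55e-05. miR-16 is also abundant in red blood cells. Of the 6 blood miRNAs listed 4 were tested, 2 of them higher in CHMmTAM, where 25.4% of all tested miRNAs were, and 0 lower, with summed levels of 4.99 to 6.12 CPM in CHMm and 12.2 to 15.0 CPM in CHMmTAM. The 2 higher ones were miR-486 and miR-142. On average miR-486 had 1.09 CPM in CHMm and 5.54 CPM in CHMmTAM, and miR-142 had 2.92 and 5.07 CPM. The erythroid miR-451 had at most 18 counts, miR-144 at most 3 and miR-486 at most 72 in any library, against at least 15176 of miR-16. The part of blood cells in the miR-16 counts was not tested.

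miR-15b, the second member by level and the partner of miR-16 within SMC4, had 260, 253 and 267 CPM in CHMm. It had 285, 298 and 285 CPM in CHMmTAM. Every library of the resistant line was above every library of the parental line, a separation that 51.8% of all tested miRNAs showed in either direction and that 2 of the 5 members showed. The log2 fold change was 0.16 with a standard error of 0.07 and missed the threshold, with an FDR of 0.0778 by edgeR. The difference was -0.09 under upper-quartile normalization, so its direction depends on the scaling. Without CHMmTAM replicate 1, miR-15b was called higher, with a log2 fold change of 0.19 and an FDR of 0.0282 from the same test.

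miR-15a, the partner of miR-16 at the locus known in human leukaemia for the loss of both, had 103, 109 and 91.9 CPM in CHMm. Its values in CHMmTAM were 103, 105 and 108 CPM, all within the range of the parental line. The log2 fold change was 0.05, with a standard error of 0.08, a 95% interval from -0.11 to 0.22 and an FDR of 0.658 by edgeR. Its sign was negative under RLE, upper-quartile normalization and scaling without the 10 most abundant miRNAs, and without CHMm replicate 3. The widest spread of miR-15a lay within CHMm, with a coefficient of variation of 8.67% against 2.35% in CHMmTAM.

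miR-195, a repressor of cyclins and CDK6 that is known for halting the cell cycle of heart muscle cells after birth, had 42.5, 47.9 and 49.5 CPM in CHMm. It had 36.2, 38.6 and 44.5 CPM in CHMmTAM. The third library of CHMmTAM lay above the first library of CHMm, so the lines overlapped. The log2 fold change was -0.24, with a standard error of 0.10, a 95% interval from -0.44 to -0.05 and an FDR of 0.0329 by edgeR. The negative direction held under all 5 scalings and in all 6 fits that left out a library. The call was lost with library totals only, at an FDR of 0.0511, and without CHMm replicate 2, CHMm replicate 3, CHMmTAM replicate 1 or CHMmTAM replicate 2, at FDRs of 0.176, 0.144, 0.226 and 0.0842 from the same test.

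miR-497, processed from the same primary transcript as miR-195 and known to repress the same cyclins, was the least abundant member and differed most. It had 34.7, 32.7 and 32.1 CPM in CHMm and 25.5, 22.6 and 26.9 CPM in CHMmTAM. All 3 libraries of the resistant line lay below all 3 of the parental line. The mean was 33.2 ± 1.38 CPM (SD, n = 3) in the parental and 25.0 ± 2.20 CPM in the resistant line. This gave a log2 fold change of -0.41 with a standard error of 0.11 and a 95% interval from -0.63 to -0.20. Its FDR was 0.000586 by edgeR, and the call held in every fit that left out a library, at FDRs from 0.000763 to 0.0115. Among all tested miRNAs its log2 fold change ranked 58 from the lowest. The 4 miRNAs listed as mesenchymal markers summed to 38.6 to 48.3 CPM in CHMm and 23.8 to 28.1 CPM in CHMmTAM. That sum rested on miR-199, at 37.8 and 21.2 CPM on average, the 1 of the 4 past the threshold, while miR-143 had a log2 fold change of 0.54 that did not pass. The part of such markers in the lower miR-195 and miR-497 was not tested.

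**Figure D2:**
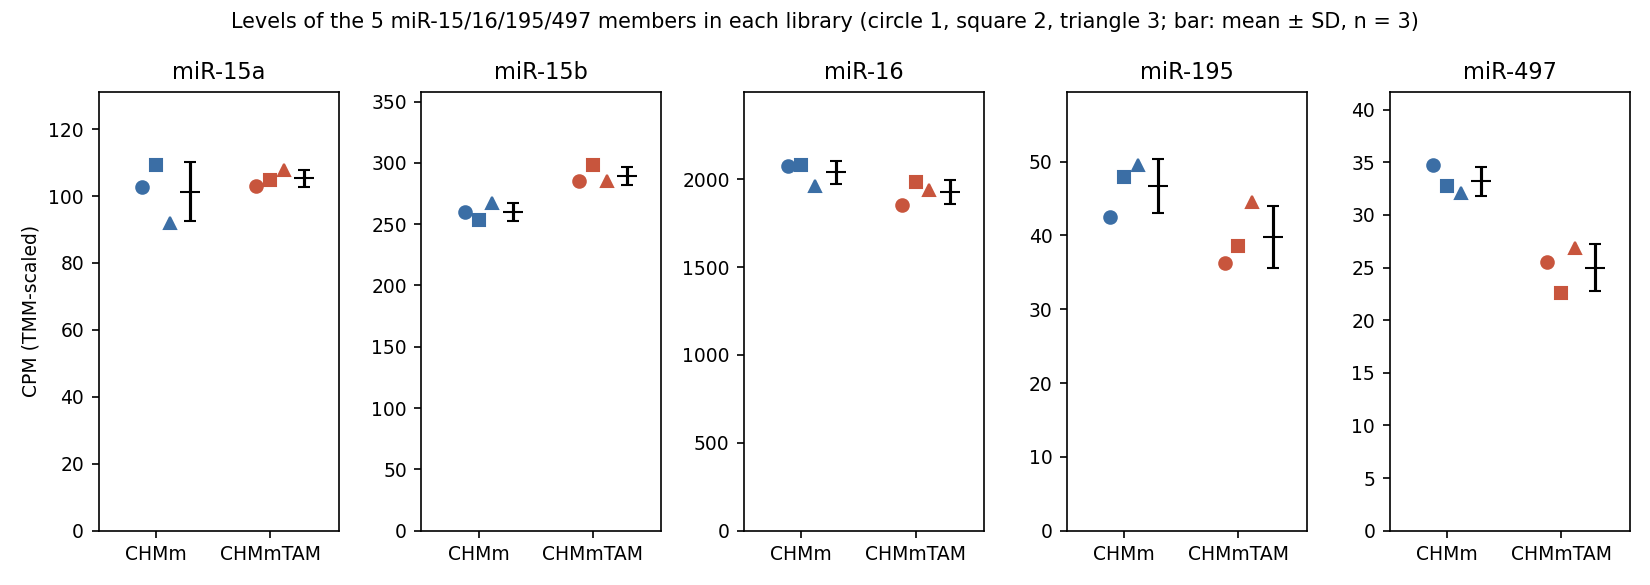
CPM of each member in the 3 libraries of CHMm (blue) and the 3 of CHMmTAM (red), on linear axes from 0, with the mean ± SD beside the points. The points of miR-15b and miR-497 separate by line, while those of miR-15a, miR-16 and miR-195 overlap.

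Because the changes were small, the choice of scaling mattered more here than for miRNAs that change severalfold. Over all tested miRNAs, the median log2 fold change was 0.06 under TMM, -0.0023 under RLE and -0.18 under upper-quartile normalization. Under TMM 72 of the 125 called miRNAs were higher in CHMmTAM, under RLE 64 of 137 and under upper-quartile normalization 41 of 141. Under upper-quartile normalization 3 of the 5 members were called lower (miR-16, miR-195 and miR-497), where 35.2% of all tested miRNAs were. Relative to the median of all tested miRNAs, miR-497 was at -0.47, miR-195 at -0.30, miR-16 at -0.14, miR-15a at -0.01 and miR-15b at 0.10 on the log2 scale under TMM. Under upper-quartile normalization the same values were -0.47, -0.30, -0.14, -0.01 and 0.09. A scaling shifts all miRNAs by nearly the same amount, so the order of the members relative to the median is kept by construction. Only their common position moved, and the same order is no test of the members.

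**Figure D3:**
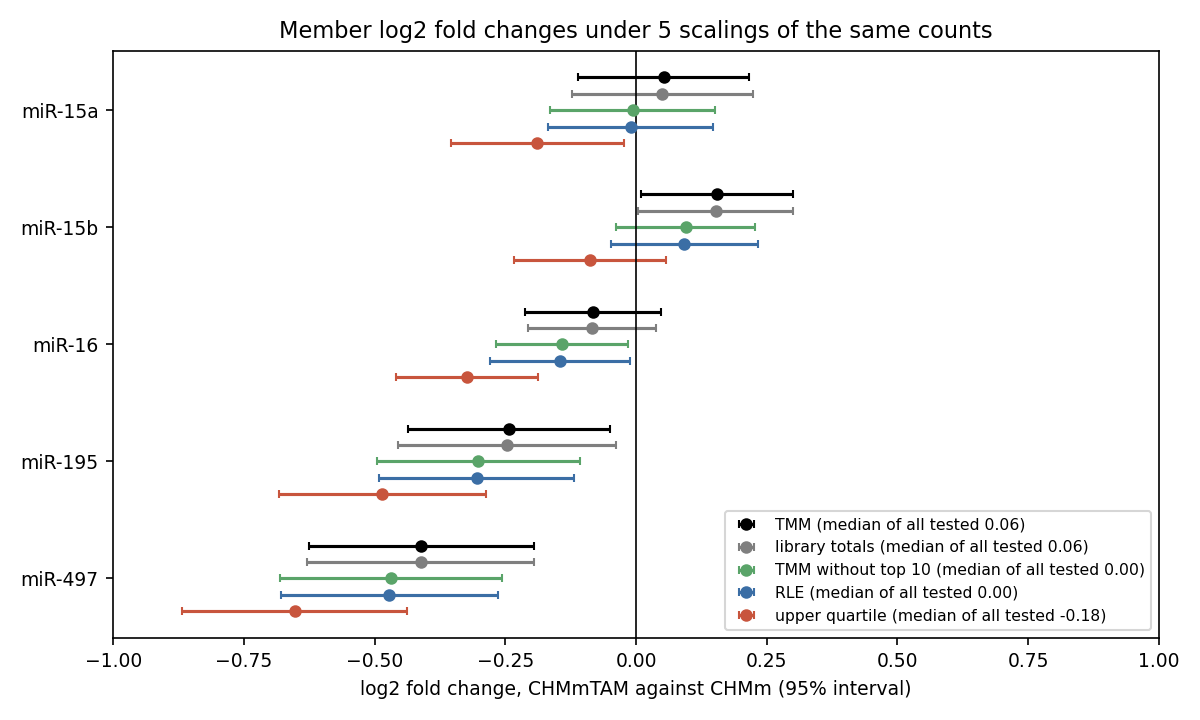
Log2 fold change of each member with its 95% interval from edgeR (horizontal axis) under 5 scalings of the same counts, with the median of all tested miRNAs under each scaling in the legend. miR-497 lies below 0 under all 5, from -0.65 to -0.41, while miR-15a and miR-15b cross 0.

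The balance within the family was therefore compared inside each library, where no scaling enters. In CHMm, miR-16 made up 82.2% ± 0.476 (SD, n = 3) of the family's counts, miR-15b 10.5% ± 0.567, miR-15a 4.08% ± 0.253, miR-195 1.88% ± 0.185 and miR-497 1.34% ± 0.0423. In CHMmTAM the shares were 80.7% ± 0.297, 12.1% ± 0.257, 4.41% ± 0.115, 1.67% ± 0.159 and 1.05% ± 0.111. The share of miR-16 was between 81.7% and 82.5% in CHMm and between 80.5% and 81.1% in CHMmTAM, without overlap. The share of miR-15b also separated, at 10.0% to 11.1% in CHMm and 11.9% to 12.4% in CHMmTAM. So did that of miR-497, at 1.30% to 1.38% and 0.921% to 1.12%, while the shares of miR-15a and miR-195 overlapped. As parts of one whole, the shares do not move independently. No background share was computed for these separations. The order of the members by level was the same in all 6 libraries. The family as a whole took 0.245%, 0.256% and 0.244% of all counts in CHMm and 0.236%, 0.244% and 0.235% in CHMmTAM, with 95% Wilson intervals that spanned at most from 0.232% to 0.259% over the 6 libraries and cover counting error only. Its summed level was 2481 ± 67.0 CPM in CHMm and 2386 ± 74.4 CPM in CHMmTAM, and the lines overlapped.

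Of 4 ratios between members, 2 separated the lines without overlap, and both have miR-16 as their denominator. Of all tested miRNAs taken singly, 51.8% separated in either direction, and no such share was computed over ratios. The number of miR-15b reads per miR-16 read, its partner within SMC4, was on average 0.128 in CHMm and 0.150 in CHMmTAM. On the log2 scale this ratio was -2.997, -3.04 and -2.87 in CHMm and -2.70, -2.74 and -2.76 in CHMmTAM, a difference of 0.24. The log2 ratio of miR-15a to miR-16 was -4.33, -4.25 and -4.42 in CHMm and -4.17, -4.24 and -4.17 in CHMmTAM, a difference of 0.14, and here the closest libraries of both lines almost met. For both ratios an exact two-sided permutation test gave p = 0.1, the smallest that 3 against 3 libraries allow, and 0.2 after Benjamini-Hochberg adjustment over the 4 ratios.

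The other 2 ratios did not separate the lines. The log2 ratio of miR-195 to miR-497, made from one transcript, was 0.29, 0.55 and 0.63 in CHMm and 0.51, 0.77 and 0.72 in CHMmTAM. The difference of 0.18 gave p = 0.3 in the exact permutation test and 0.4 after adjustment, and it ran from 0.08 without CHMm replicate 1 to 0.26 without CHMmTAM replicate 1. The log2 ratio of the paralogs miR-15a and miR-15b differed by -0.10, with p = 0.5 in the exact permutation test and 0.5 after adjustment, and ran from -0.18 without CHMm replicate 3 to -0.02 without CHMm replicate 2.

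**Figure D4:**
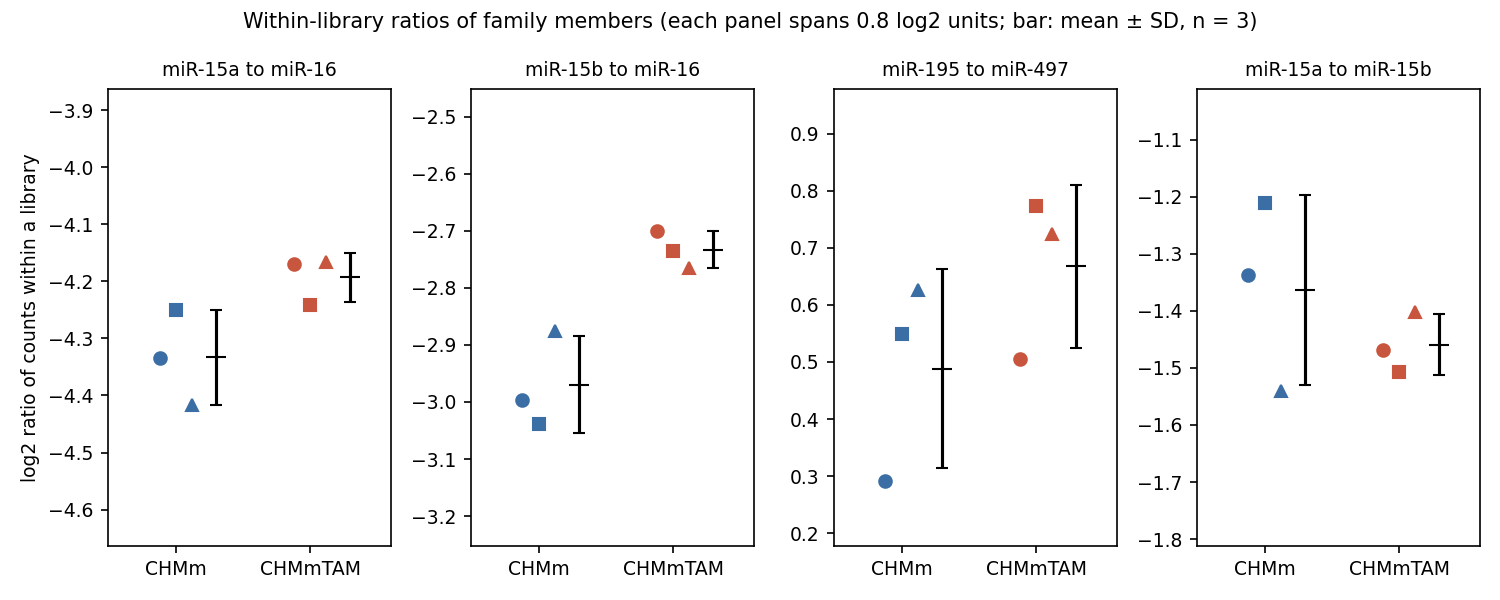
Log2 ratio of the counts of 2 members within each library of CHMm (blue) and CHMmTAM (red), with the mean ± SD beside the points and the same span of 0.8 log2 units in each panel. The ratios of miR-15a and miR-15b to miR-16 lie higher in all 3 libraries of CHMmTAM, and the other ratios overlap.

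A fit of all miRNAs with every count scaled to miR-16 of the same library compared the same 3 against 3 libraries. Its p-values can fall below 0.1 because they rest on a count model that borrows the spread across miRNAs, not on more replicates. The fit was added after seeing the data. In it miR-15b was called higher relative to miR-16, with a log2 fold change of 0.24, a 95% interval from 0.10 to 0.37 and an FDR of 0.0106 by edgeR. miR-497 was called lower, at -0.33 with an interval from -0.55 to -0.10 and an FDR of 0.0245, where 41.3% of all miRNAs were called. For miR-15a and miR-195 the log2 fold changes of 0.14 and -0.16 missed the threshold, with FDRs of 0.14 and 0.259. With every count scaled to miR-497, where 51.6% of all miRNAs were called, miR-195 was at 0.17 with an interval from -0.12 to 0.46 and an FDR of 0.291. A difference between the changes of miR-195 and miR-497 was therefore not detectable, and the interval leaves room for one.

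miRNAs with related seeds showed other values. The miR-16 relatives miR-424 and miR-503, which come from a cluster of their own and also repress cyclins, did not pass the test. miR-503 had 57.7, 67.7 and 65.3 CPM in CHMm and 62.9, 68.6 and 60.4 CPM in CHMmTAM, a log2 fold change of 0.01 with an interval from -0.17 to 0.18, and its sign changed with the scaling. miR-424 had between 32 and 73 counts per library and an interval from -0.29 to 0.61, so that a moderate change was not detectable at this depth. miR-103 and miR-107, whose seed overlaps that of miR-16 with a shift and which are known to repress CDK6 and DICER1, rose in CHMmTAM. miR-103, at 2267 ± 29.0 CPM (SD, n = 3) in CHMm as abundant as miR-16, reached 3442 ± 268 CPM in CHMmTAM, with a log2 fold change of 0.60. miR-107 rose from 94.9 ± 2.17 to 132 ± 7.06 CPM, with a log2 fold change of 0.47. Their FDRs were 2.13e-18 and 8.12e-08 by edgeR, and both stayed above 0 under all 5 scalings. Scaled to miR-16, they were at 0.68 and 0.55 with FDRs of 8.31e-06 and 0.000169 from the same test.

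Beyond the family, miRNAs known to repress cyclins and kinases of the G1/S transition moved in both directions. Of a list of 25, 22 were tested, of which 6 were higher in CHMmTAM, 8 were lower and 8 did not pass the test, with a median log2 fold change of 0.03. Over all tested miRNAs 44.0% passed, 25.4% higher and 18.7% lower, and 63.0% of those at least as abundant as miR-497 passed. The list's 14 of 22 was above the share of all and near that of the abundant ones. The list also holds scarcer miRNAs, such as miR-34b and miR-424, so neither share matches it in abundance. No test of the list as a set was run. The higher ones were led by miR-34c and miR-34b, targets of p53, at log2 fold changes of 2.26 and 2.19 (standard errors 0.12 and 0.21; FDRs 4.90e-72 and 2.32e-22 by edgeR). Both were scarce in CHMm, at 11.9 and 2.35 CPM on average, and miR-34b had 18 counts in its lowest library. The more abundant miR-34a, at 290 CPM in CHMm, had a log2 fold change of 0.46. The lower ones were led by let-7e, a repressor of RAS and MYC, at -1.04 and by miR-26a, a repressor of EZH2 and cyclins, at -0.54 (standard errors 0.07 and 0.06; FDRs 1.04e-46 and 5.54e-16 by edgeR). The list contains miR-424, miR-503, miR-103 and miR-107.

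**Figure D5:**
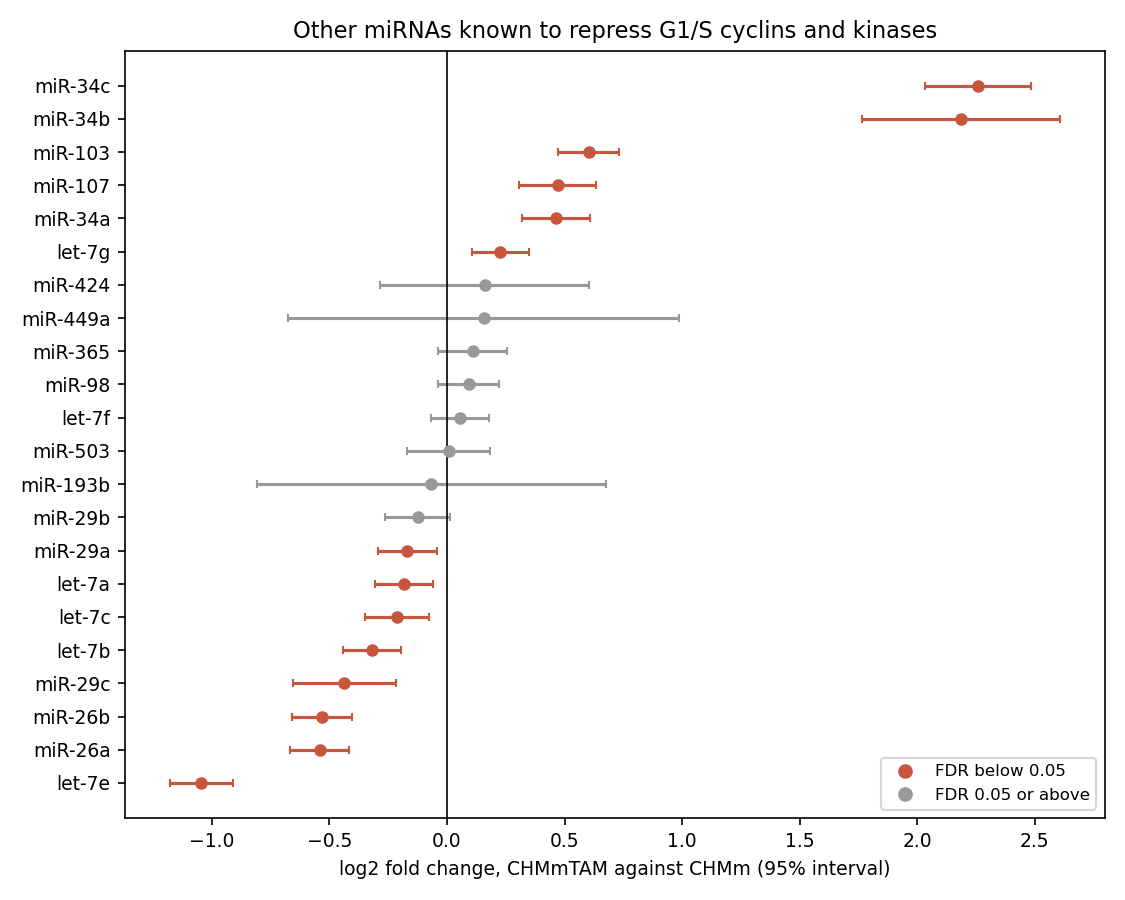
Log2 fold change of CHMmTAM against CHMm with its 95% interval (horizontal axis) for the 22 tested miRNAs of the G1/S list, in red where the FDR was below 0.05 and in grey otherwise. 6 red points lie above 0 and 8 below, from let-7e at -1.04 to miR-34c at 2.26.

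The pattern of each member over the 6 libraries was set beside those of 156 other miRNAs of at least 10 CPM, by the root-mean-square difference of centred log2 CPM, a measure that scaling does not alter. The closest to miR-16 were miR-9 and miR-320, at differences of 0.023 and 0.033. The closest to miR-15b were miR-28 and miR-1301, at 0.035 and 0.056, and to miR-15a miR-196a and miR-181d, at 0.058 and 0.065. For miR-195 they were let-7c and miR-7, at 0.092 and 0.10, and for miR-497 let-7b and miR-92b, at 0.065 and 0.078. No member had another member among its closest pair, which is likely for any small set among so many candidates. The measure also holds counting error, at 6.84% for miR-497 and 5.67% for miR-195 in their lowest libraries. The places therefore do not show whether partners moved apart. The nearest place of any member was that of miR-16 around miR-15a, at 12, while miR-15a took place 26 around miR-16. miR-16 took place 23 around miR-195 and place 48 around miR-15b. miR-195 took place 26 around miR-497, and miR-497 took place 37 around miR-195.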

How the data were processed

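Small RNA of 3 CHMm and 3 CHMmTAM libraries was sequenced on a HiSeq platform. The authors deposited raw read counts per mature miRNA name, not normalized and not pooled. The submitters' processing notes name BWA, HISAT2 2.0.4 and CanFam3.1 for the series. The counting tool, the miRNA database, adapter trimming and the handling of reads that match several miRNAs are not given in the sources used here, and they could move counts between miR-15a and miR-15b or between miR-16 and miR-195, which was not tested. The 5 members are named without their arm.

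Libraries were grouped by their labels. miRNAs with at least 10 counts in total were kept, scaled by TMM and tested with the quasi-likelihood test of edgeR 4.0.16 in R 4.3.3, CHMmTAM against CHMm without a block, and p-values were adjusted over the 284 miRNAs. Standard errors were derived from the F statistic. The fit was tested on simulated data. At the totals of 7512659 to 12482211 counts, 3 counts correspond to 0.24 to 0.399 CPM. Ratios used 0.5 added counts and exact permutation tests in SciPy 1.17.1. Alternatives used DESeq2 1.42.0 and limma 3.58.1. The members and lists were chosen with earlier results of these data known. Named were the 5 members, their seed relatives, the most changed of the G1/S list (the 2 highest and 2 lowest past FDR) and the closest pair of each member by pattern. Marker miRNAs and miR-21 were named with their values known. The seed relatives were meant to be found by sequence, but no sequences were at hand, and they were taken from general knowledge. Muscle miRNAs, also listed as markers, summed to 9.00 to 10.5 CPM in CHMm and 42.3 to 45.0 CPM in CHMmTAM. Of the 5, 4 were tested and all 4 were higher, where 25.4% of all tested miRNAs were. Their counts were low, with 2 for miR-133b, 23 for miR-133a, 24 for miR-133c and 28 for miR-1 in the lowest library of each.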

Additional observations from a re-analysis of the deposited data

How the results depend on the processing

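Of the alternatives, all but the scalings to miR-16 and miR-497 were planned. miR-497, which has no value when counts are scaled to itself, kept its direction and call in all the others, from -0.65 to -0.33. miR-15a changed sign under RLE (-0.0105), upper-quartile normalization (-0.19), with the 10 most abundant miRNAs left out of the scaling (-0.0062), by the DESeq2 Wald test (-0.0100) and without CHMm replicate 3, and ranged from -0.016 to 0.13 over the 6 fits that left out a library. miR-15b changed sign under upper-quartile normalization (-0.088), was called with counts scaled to miR-16 (0.24) and ranged from 0.13 to 0.19 with a library left out. miR-16 was called lower under upper-quartile normalization (-0.32) and by DESeq2 (-0.15) and ranged from -0.11 to -0.03 with a library left out. miR-195 lost its call with library totals only (-0.25) and with counts scaled to miR-16 (-0.16) and ranged from -0.31 to -0.16 with a library left out. The members called lower numbered 1 with library totals only, where 52 of all 284 tested miRNAs were lower. At an FDR below 0.01 they also numbered 1, and no share over all miRNAs was computed there. With a library left out, 1 to 2 members were called lower and 0 to 1 higher. Among the 267 to 278 miRNAs tested in those fits, 47 to 52 were lower and 64 to 76 higher. The summed level of the family, at -0.06 in log2, was -0.12 under RLE and without the 10 most abundant miRNAs and -0.30 under upper-quartile normalization. Of the seed relatives 1, miR-503, was called lower under upper-quartile normalization (-0.24), where 35.2% of all tested miRNAs were.

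miR-503 was also negative under RLE (-0.0559), scaling without the 10 most abundant miRNAs (-0.0531), DESeq2 (-0.0554) and at least 10 counts in every library (-0.0028), and from -0.054 to 0.068 with a library left out. miR-424 was at -0.084 under upper-quartile normalization and from -0.072 to 0.36 with a library left out. With the replicate number as a block (replicate block), 2 members were lower and 0 higher. Of all 284 tested miRNAs 52 were lower and 74 higher in that fit. In it miR-497 was at -0.42 and no member's call changed. No source states that same-numbered libraries belong together, so the numbers were not taken to pair the libraries. Deviations of same-numbered libraries correlated at 0.06, 0.46 and -0.31, which cannot settle pairing with 3 libraries per line. Depth limits miR-424, with 32 counts in its lowest library.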
